A study of Homo sapiens with 6 samples.

Results

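The WNT pathway factors and feedback genes described here are 10 genes chosen by symbol from the deposited count table: the DNA-binding factors TCF7, TCF7L1, TCF7L2 and LEF1, the co-activator CTNNB1, the co-repressors TLE1 and TLE2, and the feedback genes AXIN2, RNF43 and ZNRF3. They are 10 of 57445 genes in the table, and 9 of them, all but LEF1, are among the 17129 genes with enough counts to be tested. RNA was sequenced from the human lung cancer line H358, an established non-small cell line, in 3 groups of 2 libraries. C1 and C2 are isogenic clones that carry A273V in BRMS1v2 on both copies per their titles, and WT is the parental line with wild-type BRMS1. BRMS1 is a metastasis suppressor found in the SIN3 histone deacetylase complex. The comparisons ask how the clones differ from the parental line. Each clone group is 1 clone, so the variant and the picking of a clone cannot be told apart, and how the clones were edited or picked is not given in the sources used here.

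WNT ligands bind Frizzled receptors with LRP5 or LRP6 and stop a cytoplasmic destruction complex from marking β-catenin for breakdown. β-catenin then binds TCF and LEF proteins on DNA and turns their target genes on, while without it the same proteins carry TLE co-repressors and keep those genes low. AXIN2, RNF43 and ZNRF3 are targets of the pathway that damp it, AXIN2 as a scaffold of the destruction complex and RNF43 and ZNRF3 as membrane ubiquitin ligases that remove Frizzled receptors, and in epithelial cancers, gut tumours above all, several of these genes are mutated.

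The libraries held 37146270 and 29857754 gene counts in C1, 29841005 and 32509101 in C2, and 30735129 and 27527867 in WT, replicate 1 before replicate 2 here and below. Levels are counts scaled for library size and composition (CPM, with TMM factors), and levels of different genes are compared only as CPM per kb of exon. Summed CPM of 6 epithelial markers lay between 5150 and 7340 with every marker detected. Of the other lineages, 7 blood cell markers summed to 2.21 to 4.68 CPM with HBB at 0 in all 6 libraries, and 7 fibroblast markers to 39.5 to 71 CPM, mostly COL1A1 and LUM. With the block described below, edgeR called the fibroblast collagen COL3A1 lower in C1 (adjusted p 0.00368) and in C2 (adjusted p 0.00583). It had 3 and 2 counts in C1, 1 and 6 in C2 and 12 and 77 in WT. The 3 endothelial markers in the table, mostly KDR, summed to 18 and 42.2 CPM in C1, 16.2 and 26.1 in C2 and 9.53 and 21.2 in WT. Of these, CDH5 and KDR were called higher in C1 with the block (edgeR adjusted p 0.0211 and 0.00988), as was the epithelial EPCAM in the mean of the clones, and the part of these markers in the results was not tested. BRMS1 itself had 951 and 899 counts in C1, 815 and 813 in C2 and 1341 and 1030 in WT. The labels do not say that replicates are separate cultures, so p-values measure only the spread between these libraries.

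More genes were called between the replicate numbers, which the labels do not explain, than between clones and WT. Between replicate 2 and replicate 1 within groups, edgeR called 24.7% of tested genes, and 24 of 24 proliferation genes were lower in replicate 2, 9 of them past the threshold (MCM2 to MCM6, PCNA, TYMS, RRM2 and E2F1). Of the cell-type markers, COL1A1, COL3A1, CD14 and KDR were called higher in replicate 2. The summed CPM of the 24 proliferation genes was 705 in replicate 2 and 4360 in replicate 1 of C1, 1610 and 5190 in C2, and 1810 and 4610 in WT. For the 9 tested WNT genes, each difference between groups is therefore given from a fit with group means alone. Where the call changes, it is also given from a fit with the replicate number as a further term. That term is called the block (values marked blocked). The other pathway genes are given mainly from the blocked fit. A gene is called at an adjusted p below 0.05 in edgeR's quasi-likelihood test with Benjamini-Hochberg adjustment over all 17129 genes. The blocked calls rest on the assumption that libraries with the same number share a condition.

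Start-site windows of the genes on which the results turn are shown because TCF7, TCF7L2 and TLE2 each have more than 1 annotated start, which gene counts cannot tell apart. RNF43 also has more than 1 start, and its windows are not printed. Of the TCF7L2 windows only the middle one is printed, the one that holds a motif match. The downstream start of TCF7 is known to yield short proteins without the β-catenin-binding end. The windows are from RefSeq on GRCh38.p14, 250 bases before to 50 after the start, and 8 of the 10 genes matched an entry, with 13 windows in all and none for AXIN2 and ZNRF3. Capitals mark the core letters that TCF and LEF proteins bind, searched on both strands as CTTTG followed by 2 letters that are each A or T.
TCF7 upstream window, chr5:134115363-134115662, plus strand: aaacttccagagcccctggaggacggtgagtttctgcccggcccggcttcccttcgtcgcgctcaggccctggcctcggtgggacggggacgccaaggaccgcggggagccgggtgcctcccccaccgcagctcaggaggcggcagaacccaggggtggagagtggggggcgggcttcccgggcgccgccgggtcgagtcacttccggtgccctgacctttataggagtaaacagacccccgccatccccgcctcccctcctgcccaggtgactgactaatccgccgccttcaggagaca
TCF7 downstream window, chr5:134123368-134123667, plus strand: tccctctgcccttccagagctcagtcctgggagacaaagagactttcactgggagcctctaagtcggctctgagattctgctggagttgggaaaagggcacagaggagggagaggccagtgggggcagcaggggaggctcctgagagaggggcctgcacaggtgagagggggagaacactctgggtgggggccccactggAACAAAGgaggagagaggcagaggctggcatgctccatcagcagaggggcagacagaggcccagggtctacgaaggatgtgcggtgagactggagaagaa
TCF7L2 middle window, chr10:113126383-113126682, plus strand: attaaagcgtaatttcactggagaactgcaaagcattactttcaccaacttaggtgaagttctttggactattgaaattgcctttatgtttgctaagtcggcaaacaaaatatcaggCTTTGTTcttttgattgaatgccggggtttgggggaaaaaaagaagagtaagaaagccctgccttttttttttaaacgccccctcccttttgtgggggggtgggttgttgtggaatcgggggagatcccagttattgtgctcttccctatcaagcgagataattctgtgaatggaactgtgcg
TLE2 upstream window, chr19:3047586-3047885, minus strand: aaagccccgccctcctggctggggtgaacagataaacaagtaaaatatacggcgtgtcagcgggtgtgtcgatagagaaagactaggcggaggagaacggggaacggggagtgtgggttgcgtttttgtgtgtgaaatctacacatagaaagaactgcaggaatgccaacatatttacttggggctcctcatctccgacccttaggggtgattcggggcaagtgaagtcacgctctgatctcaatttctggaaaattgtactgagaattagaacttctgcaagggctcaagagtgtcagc
TLE2 downstream window, chr19:3029231-3029530, minus strand: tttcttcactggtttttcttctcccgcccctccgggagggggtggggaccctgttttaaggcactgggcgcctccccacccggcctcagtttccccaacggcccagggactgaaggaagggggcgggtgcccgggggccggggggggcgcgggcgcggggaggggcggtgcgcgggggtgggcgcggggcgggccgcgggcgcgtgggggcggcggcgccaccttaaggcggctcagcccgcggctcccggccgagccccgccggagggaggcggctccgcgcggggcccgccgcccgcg

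A core motif was present in 2 of the 13 windows. It stood at position -50 of the downstream TCF7 window, on the opposite strand, and at position -133 of the middle TCF7L2 window, as printed. Of 35116 RefSeq windows of the same length, 13.8% held one of these motifs, so a match is a description of the letters and not a binding site. The windows of 1 gene differed in base composition. The upstream TCF7 window was 69.7% G or C with 25 CpG pairs, against 61% and 3 in the downstream one, and the downstream TLE2 window was 79.7% G or C with 40 CpG pairs, against 49.3% and 12 in the upstream one.

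In level, the genes ran in a wide order with CTNNB1 at the top and LEF1 at the bottom. CTNNB1 had a median of 51.9 CPM per kb over the 6 libraries (35.8 to 60.2), TLE1 8.95 (7.65 to 13.1), RNF43 6.3 (4.05 to 7.31), TCF7L2 3.35 (2.78 to 4.3) and ZNRF3 3.1 (2.43 to 3.69). TLE2 followed at 0.856 CPM per kb (0.287 to 1.55), AXIN2 at 0.546 (0.389 to 1), TCF7L1 at 0.326 (0.223 to 0.427), TCF7 at 0.0556 (0.0185 to 0.238) and LEF1 at 0.00289 (0 to 0.0477). CTNNB1, TLE1 and ZNRF3 stood apart from the gene below them in range, while the other neighbours overlapped. TCF7L2 was above ZNRF3 in 4 of 6 libraries and TLE2 above AXIN2 in 3 of 6, so those pairs have no fixed order. The median tested gene had 3.81 CPM per kb, which places TLE2, the feedback gene AXIN2 and the factors TCF7L1, TCF7 and LEF1 well below it. The medians of TCF7L2 (3.35) and ZNRF3 (3.1) were also below it, by less.

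**Figure D1:**
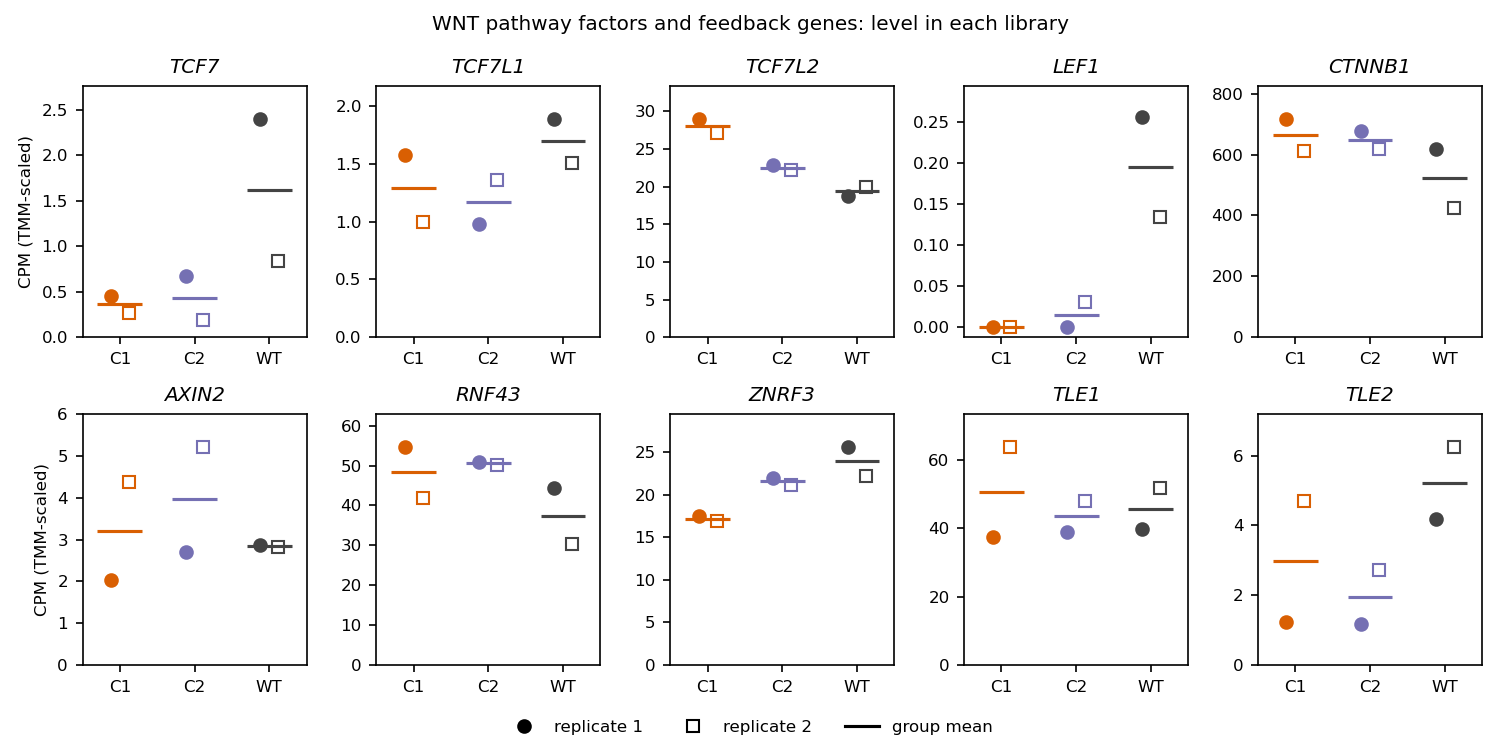
Level of each of the 10 WNT genes, in CPM on a linear axis with its own scale per gene, in the 2 libraries of C1, C2 and WT. Filled circles are replicate 1, open squares replicate 2, and lines group means. TCF7L2 is higher and TCF7 and ZNRF3 are lower in all 4 clone libraries than in both WT libraries. The share of all genes that separate in this way was not counted. LEF1 has counts in WT but only 1 count in the clones.

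TCF7, which encodes TCF1, had the largest difference from WT among the 9 tested, at 4.44-fold lower in C1 and 3.82-fold lower in C2. It had 16 and 8 counts in C1, 19 and 6 in C2 and 75 and 25 in WT, or 0.452 and 0.267 CPM in C1, 0.667 and 0.186 in C2 and 2.4 and 0.841 in WT. Every clone library lay below both WT libraries, and in each group replicate 2 lay below replicate 1. In these cell pools fewer cells that express a gene and less RNA per cell cannot be told apart.

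The TCF7 difference passed the threshold only with the replicate block. On the log2 scale C1 differed from WT by -2.15 (SE 0.79, 95% interval -4.06 to -0.24, edgeR adjusted p 0.582) and C2 by -1.93 (SE 0.78, -3.83 to -0.04, adjusted p 0.732). Blocked, TCF7 fell by 2.11 in C1 (SE 0.44, -3.05 to -1.16, edgeR adjusted p 0.0117) and by 1.94 in C2 (SE 0.43, -2.87 to -1.01, adjusted p 0.0221). Within replicate numbers, C1 differed from WT by -2.25 and -1.45 and C2 by -1.75 and -1.86 (log2). DESeq2 with the block gave adjusted p values of 0.0652 in C1 and 0.0982 in C2. The edgeR call in C1 was lost without C1 replicate 1 (log2 difference -1.58, adjusted p 0.173), C2 replicate 1 (0.0963), C2 replicate 2 (0.0974) or WT replicate 1 (0.0555), and that in C2 without C2 replicate 1 (0.317), C2 replicate 2 (0.512) or WT replicate 1 (0.103). TCF7 shares 2.09% of its exon bases with SKP1 on the opposite strand, and without a stated strand setting its reads cannot be assigned further.

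LEF1, the fourth factor of the family, was close to the detection limit in every library and was not tested. It had 0 and 0 counts in C1, 0 and 1 in C2 and 8 and 4 in WT. Over the group LEF1 was at least 4.28-fold lower in C1 than in WT, with 3 counts set as the limit that a count of 0 allows, and the 95% counting interval of the ratio, which also covers the error of the WT counts, starts at 2.98. WT over C2 gave a ratio of 12 with a 95% counting interval of 1.77 to 511. Both intervals and limits cover counting error only. With no filter on low counts, edgeR's adjusted p for LEF1 was 0.202 in C1 and 0.729 in C2.

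TCF7L2, which encodes TCF4 and is the family's main member in many epithelia, had 29 and 27.1 CPM in C1, 22.8 and 22.2 in C2 and 18.7 and 20 in WT. All 4 clone libraries were above both WT libraries, with both C1 libraries above both C2 libraries. C1 differed from WT by 0.53 on the log2 scale (SE 0.19, 95% interval 0.07 to 1, edgeR adjusted p 0.577) and C2 by 0.22 (SE 0.19, -0.24 to 0.68, adjusted p 0.942), and neither passed with the block (edgeR adjusted p 0.0933 and 0.565). TCF7L1, which encodes the mostly repressive TCF3, had 1.58 and 1 CPM in C1, 0.983 and 1.36 in C2 and 1.89 and 1.51 in WT, on at most 59 counts per library. The C1 libraries overlapped the WT ones and both C2 libraries lay below them. C1 differed from WT by -0.39 on the log2 scale (-1.4 to 0.61) and C2 by -0.53 (-1.55 to 0.48), past no threshold in edgeR (adjusted p 0.925 and 0.927).

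TCF7L2 held most of the CPM per kb of the 4 TCF and LEF genes in every library, and its share in the clones did not overlap that in WT. It was 91.4% and 94.1% in C1, 92.2% and 90.8% in C2 and 79.6% and 86.8% in WT. The mean was 92.1% ± 1.4 in the clone libraries (SD, n = 4 libraries of 2 clones) and 83.2% ± 5.1 in WT (SD, n = 2). An exact two-sided permutation test of 4 against 2 libraries cannot go below 0.133, so this and the shares that follow are descriptions with no test. TCF7L1 held 5.31% to 12.2% over all libraries, TCF7 0.507% to 6.82% and LEF1 at most 1.37%.

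**Figure D2:**
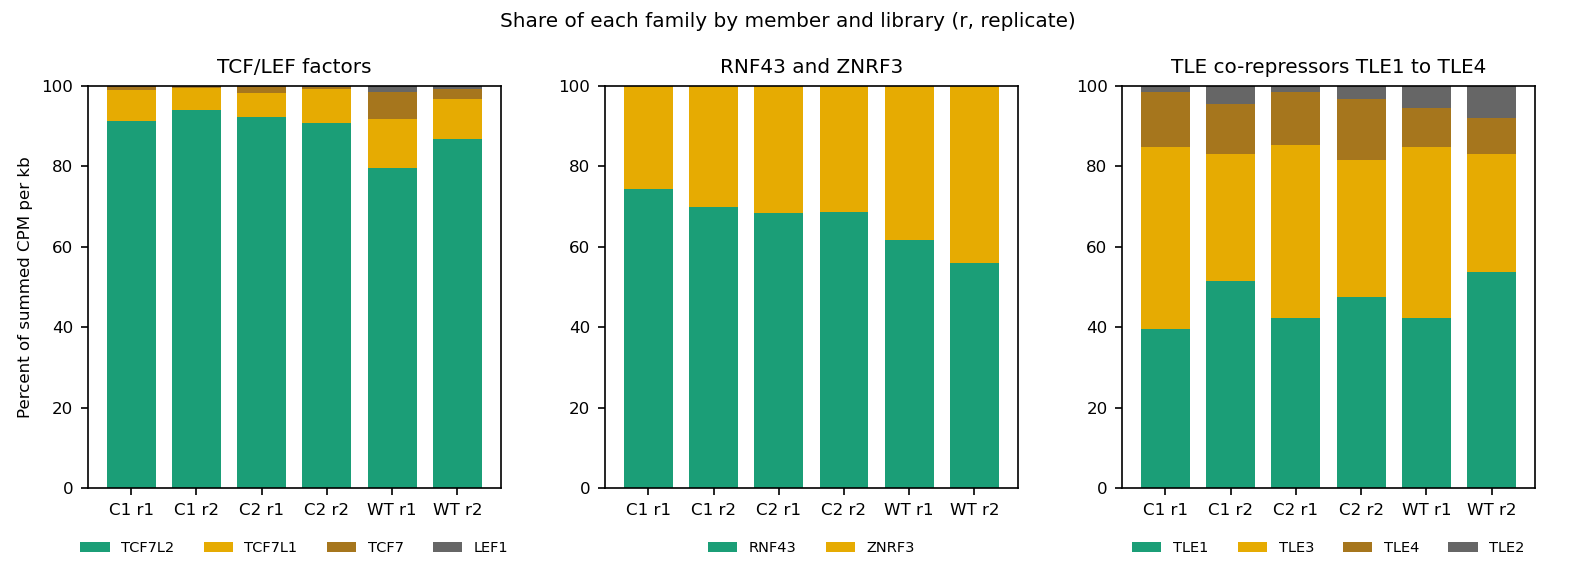
Share of each gene in the summed CPM per kb of its family, in percent, for the 6 libraries (r, replicate), with C1 and C2 left of WT. TCF7L2 holds 90.8% to 94.1% of the TCF and LEF total in the clones and 79.6% to 86.8% in WT, and RNF43 holds 68.3% to 74.4% of the ligase pair in the clones and 55.9% to 61.6% in WT.

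CTNNB1, which encodes β-catenin, was the most abundant of the 10 genes. Its level was 718 and 611 CPM in C1, 677 and 618 in C2 and 620 and 426 in WT, and WT replicate 1 lay within the clones' range. C1 differed from WT by 0.35 on the log2 scale (SE 0.24, 95% interval -0.23 to 0.92, edgeR adjusted p 0.834) and C2 by 0.31 (SE 0.24, -0.27 to 0.89, adjusted p 0.923). Blocked, the values were 0.36 and 0.33, and the edgeR adjusted p values 0.172 and 0.244. These are transcript levels, and β-catenin is regulated mainly as a protein, which was not measured here.

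TLE2, a Groucho-type co-repressor, was lower in C2 than in WT with the block and did not pass the test in C1. It had 44 and 141 counts in C1, 33 and 88 in C2 and 131 and 186 in WT, or 1.24 and 4.71 CPM in C1, 1.16 and 2.72 in C2 and 4.19 and 6.26 in WT. Both C2 libraries lay below both WT libraries, while C1 replicate 2 lay between the WT values. In every group TLE2 was higher in replicate 2.

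For TLE2, C2 differed from WT by -1.42 on the log2 scale (SE 0.71, 95% interval -3.15 to 0.31, edgeR adjusted p 0.829) and C1 by -0.82 (SE 0.7, -2.51 to 0.88, adjusted p 0.888). Blocked, TLE2 fell by 1.54 in C2 (SE 0.34, -2.29 to -0.79, edgeR adjusted p 0.0242), and in C1 the value was -1.03 (SE 0.33, -1.75 to -0.3, adjusted p 0.0866). DESeq2 with the block also called it in C2 (adjusted p 0.00842) and not in C1 (0.111). Within replicate numbers, C2 differed by -1.8 and -1.18 and C1 by -1.7 and -0.41 (log2). The call in C2 was lost without C2 replicate 1 (edgeR adjusted p 0.386), C2 replicate 2 (0.544) or WT replicate 1 (log2 difference -1.05, adjusted p 0.0841). In C1 TLE2 passed with the block once C1 replicate 2 (log2 difference -1.61, edgeR adjusted p 0.00778) or WT replicate 2 (-1.56, 0.00756) was left out, and with no filter on low counts (0.02).

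TLE1, a co-repressor of the same type, had 37.5 and 64 CPM in C1, 39 and 48 in C2 and 39.8 and 51.8 in WT. The 3 groups overlapped. C1 differed from WT by 0.15 on the log2 scale (SE 0.3, 95% interval -0.59 to 0.89, edgeR adjusted p 0.974) and C2 by -0.07 (SE 0.3, -0.81 to 0.66, adjusted p 0.997). Of the CPM per kb of the full-length co-repressors TLE1 to TLE4, TLE1 held 39.6% to 53.7% over all libraries and TLE3 29.4% to 45.2%. TLE2 held the smallest share in every library, with 1.59% and 4.6% in C1, 1.53% and 3.28% in C2 and 5.42% and 7.89% in WT. The mean was 2.75% ± 1.48 in the clone libraries (SD, n = 4) and 6.65% ± 1.75 in WT (SD, n = 2).

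Of the feedback genes, AXIN2, often read as a gauge of β-catenin activity, was higher in replicate 2 than in replicate 1 of each clone and nearly equal in the WT libraries. Its counts were 72 and 131 in C1, 77 and 169 in C2 and 90 and 84 in WT, and its level 2.03 and 4.38 CPM in C1, 2.7 and 5.23 in C2 and 2.88 and 2.83 in WT. Replicate 1 of each clone lay below both WT libraries and replicate 2 above them, so the groups overlapped. Against WT, C1 differed by 0.17 on the log2 scale (SE 0.5, 95% interval -1.04 to 1.37, edgeR adjusted p 0.979) and C2 by 0.48 (SE 0.5, -0.73 to 1.68, adjusted p 0.961). Within replicate numbers C1 differed by -0.49 and 0.62 and C2 by -0.09 and 0.87. The sign of the difference from WT thus changed with the replicate number in both clones. The difference between the replicate effects of the groups was not tested.

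RNF43 and ZNRF3, the paired receptor-removing ligases, had mean levels on opposite sides of WT. RNF43 had 54.8 and 42 CPM in C1, 51 and 50.2 in C2 and 44.4 and 30.4 in WT, with both C2 libraries and 1 C1 library above both WT libraries. ZNRF3 had 17.5 and 16.9 CPM in C1, 22 and 21.2 in C2 and 25.7 and 22.2 in WT, with all clone libraries below both WT libraries and C1 below C2. Neither passed the test.

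For RNF43, C1 differed from WT by 0.37 on the log2 scale (SE 0.25, 95% interval -0.24 to 0.98, edgeR adjusted p 0.827) and C2 by 0.44 (SE 0.25, -0.17 to 1.04, adjusted p 0.859). For ZNRF3 the values were -0.48 for C1 (SE 0.2, -0.97 to 0.01, edgeR adjusted p 0.643) and -0.15 for C2 (SE 0.2, -0.64 to 0.34, adjusted p 0.987). Blocked, the smallest edgeR adjusted p of the pair in a single clone was 0.144, for ZNRF3 in C1. RNF43 made up 70.3% ± 2.83 of the pair's summed CPM per kb in the clone libraries (SD, n = 4) and 58.8% ± 3.98 in WT (SD, n = 2). RNF43 shares 57.6% of its exon bases with a read-through gene, AC004687.2, on the same strand, for which no count was analysed here. Reads from that gene cannot be told apart from those of RNF43 over the shared bases. RNF43 also shares 1.91% with SUPT4H1 on the same strand, which had 17458 counts. With TSPOAP1-AS1 on the opposite strand, which had 8 counts, it shares 20.3%. AXIN2 shares 25.2% with AC004805.1 on the same strand, which had 0 counts. The effect of these overlaps on the counts was not tested.

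**Figure D3:**
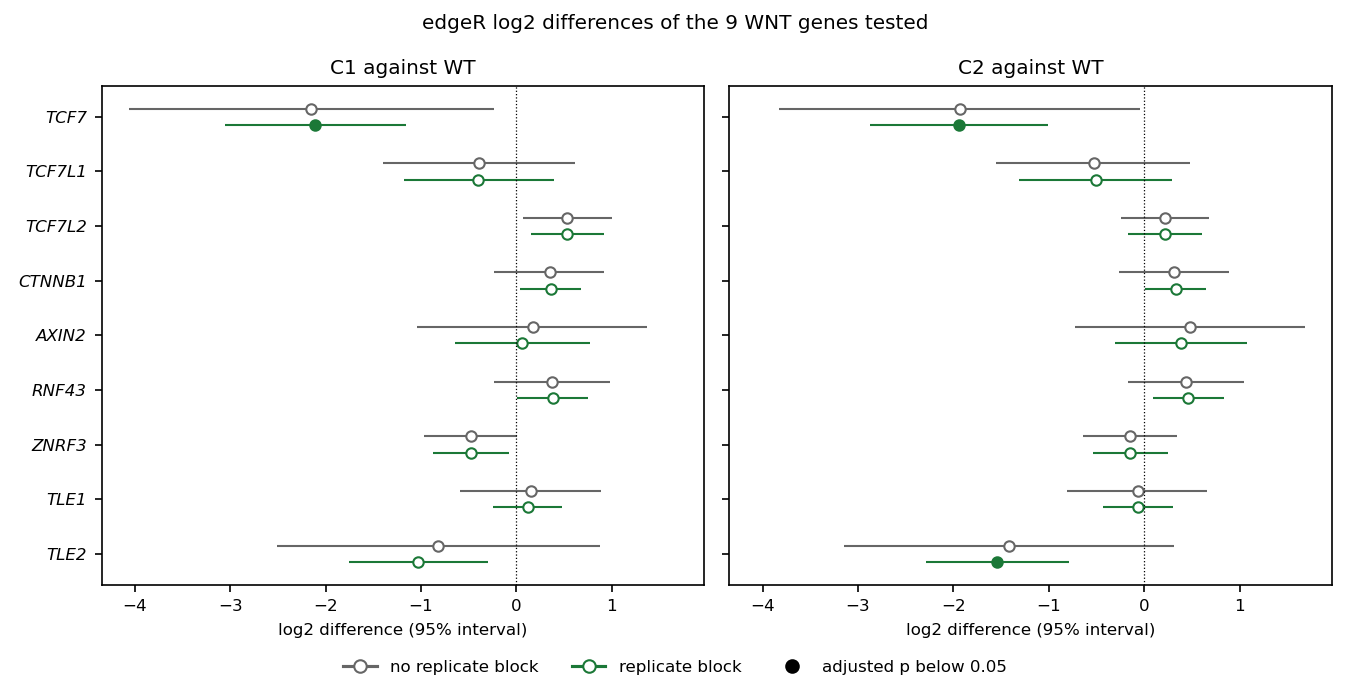
Log2 difference of the 9 tested WNT genes in C1 (left) and C2 (right) against WT from edgeR, with 95% intervals not adjusted for multiple tests, without the replicate block in grey and with it in green. Filled points have an adjusted p below 0.05 and are TCF7 in both clones and TLE2 in C2, each with the block.

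Counted over the 9 tested genes, edgeR without the block called 0 in C1 against WT and 0 in C2 against WT, where 0.0117% of all tested genes were called in each. At an unadjusted p below 0.05 there were 2 of the 9 in C1 (TCF7 and TCF7L2) against 7.87% of all genes and 1 in C2 (TCF7) against 6.75%, and DESeq2 without the block called 0 in either clone. With the block, edgeR called 1 of 9 in C1 against 7.03% of all genes, and 2 of 9 in C2 against 4.54% of all genes. At an unadjusted p below 0.05 the blocked fit had 6 of 9 in C1 against 21.3% of all genes, 4 of 9 in C2 against 19% and 5 of 9 for the mean of the clones against 24.1%. For the mean of both clones against WT it called 0 of 9 without the block, where 0.198% of all genes were called, and 2 of 9 with it, TCF7 and TLE2, where 9.74% were called. At an unadjusted p below 0.05 the mean had 1 of the 9 without the block, against 9.79% of all genes. DESeq2 without the block called 0 of the 9 in the mean, and 393 of all 17129 genes. With no filter on low counts, edgeR without the block called TCF7 in the mean (adjusted p 0.0303), where 436 of 30735 genes were called. DESeq2 with the block called both TCF7 (adjusted p 0.0175) and TLE2 (0.00578) in the mean, where it called 1532 of 17129 genes. The blocked edgeR call of TCF7 in the mean was lost without C2 replicate 1 (adjusted p 0.0862) or C2 replicate 2 (0.0974), and that of TLE2 without C2 replicate 1 (0.176), C2 replicate 2 (0.185) or WT replicate 1 (log2 difference -0.79, adjusted p 0.127). Over the 9, the median log2 difference came to 0.15 for C1 and -0.07 for C2, against -0.01 and 0.01 over all tested genes. Both clone comparisons share the WT libraries, so their values are set side by side and not counted as repeats of each other.

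Libraries of clone and WT did not overlap for TCF7L2, TCF7 and ZNRF3 in C1, 3 of 9 against 35.1% of all tested genes. In C2 they did not overlap for TCF7L2, RNF43, TCF7, TCF7L1, ZNRF3 and TLE2, 6 of 9 against 34.8% of all genes. TCF7L2 was higher and TCF7 and ZNRF3 lower in both clones, RNF43 was higher in C2, and TCF7L1 and TLE2 were lower in C2. The share of all genes that separate in both clones at once, as some genes below also do, was not counted. Both comparisons share the WT libraries. The ZNRF3 gap was narrow in C2, with 22 CPM in C2 replicate 1 and 22.2 in WT replicate 2.

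No difference between C2 and C1 passed the threshold in any of the 9 genes. In C2 against C1, edgeR called 0 of 9 with or without the block, where 0% of all tested genes were called. At an unadjusted p below 0.05 there were 0 of 9 in both fits and 61 and 642 of all genes without and with the block, and DESeq2 called 0 genes without it and 20 with it, none of them among the 9. The libraries of C2 and C1 did not overlap for ZNRF3, higher in C2, and TCF7L2, lower in C2, 2 of 9 against 14.6% of all genes. ZNRF3 differed by 0.33 (SE 0.2, 95% interval -0.16 to 0.82, edgeR adjusted p 1) and TCF7L2 by -0.31 (SE 0.19, -0.78 to 0.15, adjusted p 1). The widest intervals were those of TCF7, -1.79 to 2.22, and TLE2, -2.33 to 1.11.

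In replicate 2 against replicate 1 within groups, 3 of the 9 were called against 24.7% of all genes. TLE2 rose by a log2 difference of 1.21 (SE 0.28, edgeR adjusted p 0.00801) and TLE1 by 0.48 (SE 0.14, adjusted p 0.0227), and TCF7 fell by 1.39 (SE 0.37, adjusted p 0.0156). By group, the difference of TLE2 was 1.87 in C1, 1.19 in C2 and 0.57 in WT, and that of TCF7 -0.64 in C1, -1.55 in C2 and -1.44 in WT. AXIN2 differed by 1.08 in C1, 0.94 in C2 and -0.03 in WT, and by 0.68 over the groups (SE 0.27, edgeR adjusted p 0.077). The TLE2 call was lost without C2 replicate 1 (adjusted p 0.135) or C2 replicate 2 (0.138), that of TLE1 without either library of C1 or C2 (0.123 to 0.208), and that of TCF7 without either library of C2 or WT (0.07 to 0.156) and in DESeq2 (0.0856). Without either WT library AXIN2 passed, with a log2 difference of 1.03 (edgeR adjusted p 0.00443 and 0.0045), and it also passed with no filter on low counts (0.0456). The proliferation genes moved with the same number, and their part in these values was not tested.

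**Figure D4:**
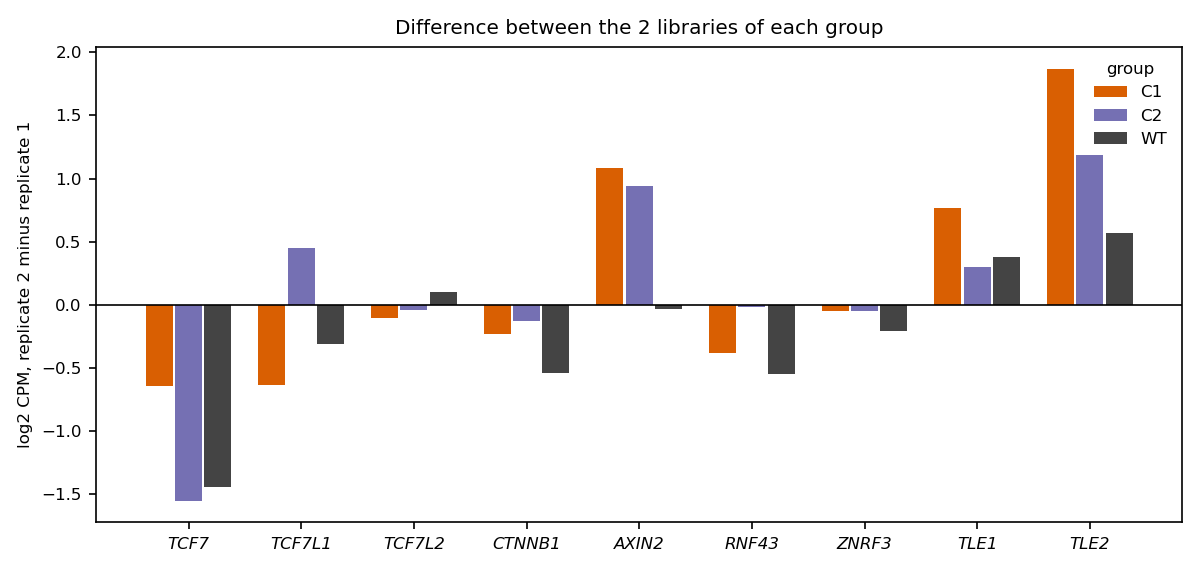
Log2 CPM in replicate 2 minus replicate 1 for the 9 tested WNT genes, 1 bar per group and no error bar since each is a single pair of libraries. TLE1 and TLE2 are above 0 and TCF7 is below 0 in all 3 groups, and AXIN2 is 1.08 in C1, 0.94 in C2 and -0.03 in WT.

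By likeness of pattern over the 6 libraries, the genes closest to AXIN2 in log2 CPM were COMMD5 (Pearson r 0.995), UBTD1 (0.991) and ITPR3 (0.967) among 11617 genes. UBTD1, for example, had 7.32 and 15 CPM in C1, 9.16 and 16.3 in C2 and 10.7 and 9.76 in WT. Those closest to TLE2 were ARHGEF25 (0.994), TBKBP1 (0.993) and FAM195A (0.993). ARHGEF25 had 1.89 and 5.28 CPM in C1, 1.54 and 3.28 in C2 and 4.44 and 5.86 in WT. Likeness was ranked over 6 libraries that share the replicate difference, and it describes these libraries only.

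Among 107 other genes of the pathway, 78 were tested, and their share of calls with the block was near that of all genes. edgeR called 8.97% of the 78 in C1 against 7.03% of all genes, 5.13% in C2 against 4.54%, and 12.8% for the mean of the clones against 9.74%. Without the block it called 0 of the 78 in C1 and 0 in C2, where 0.0117% of all genes were called in each. With the count filter, the edgeR calls below therefore depend on the block unless stated. Other settings without the block gave some calls. For the mean of the clones, DESeq2 called APCDD1 (adjusted p 0.0375) and WNT5A (0.000319). In that mean, edgeR with no filter on low counts called WNT8B (adjusted p 0.0274) and WNT5A (0.0259). Unfiltered edgeR also called WNT5A in C1 (0.0443), and PYGO1 in C1 (0.000119) and C2 (5.84e-05). Since the share was near that of all genes, the genes below are given one by one, and nothing is read from their number. PYGO1, a nuclear cofactor that links β-catenin to the histone tail through BCL9, had 27 and 20 counts in C1, 16 and 22 in C2 and 133 and 204 in WT. Every clone library was below both WT libraries. Without the block, edgeR did not call PYGO1 in C1 (adjusted p 0.132) or in C2 (0.164). DESeq2 without the block called it in C1 (adjusted p 1.14e-06) and in C2 (3.01e-07). For the mean of the clones, PYGO1 fell by 3.05 on the log2 scale (SE 0.32, 95% interval -3.82 to -2.28, edgeR adjusted p 0.0414 without the block), the only 1 of the 78 called in that fit. That call was lost without any 1 of the 6 libraries, with adjusted p values of 0.132 to 0.346 and log2 differences of -3.35 to -2.66. With the block it fell by 2.91 in C1 (edgeR adjusted p 0.000254) and by 3.13 in C2 (0.000264), and the call in C2 was lost without C2 replicate 1 (0.142) or C2 replicate 2 (0.199).

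The other 10 nuclear cofactors, all tested, gave 0 calls by edgeR between clones and WT, with BCL9L, PYGO2, CTBP1 and EP300 the ones with the most reads. With the block 7.03% of all genes were called in C1 and 4.54% in C2. Of the 11 cofactors with PYGO1, 4 in each clone had an unadjusted p below 0.05 with the block. The shares of all genes at that threshold were 21.3% in C1 and 19% in C2. The destruction complex and Dishevelled genes, 16 of 16 tested, gave 0 calls against WT by edgeR or DESeq2, with or without the block. With the block, 1 of 16 in C1 and 0 in C2 had an unadjusted p below 0.05, against 21.3% and 19% of all genes. Without the block, the median over these genes was a log2 difference of 0.05 for C1 and -0.06 for C2. Cadherin partners, 4 of 4 tested, also gave 0 calls by both tools, with 2 of 4 in C1 and 1 of 4 in C2 at an unadjusted p below 0.05 with the block, where 21.3% and 19% of all genes were. They are CDH1, CTNNA1, CTNND1 and JUP.

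Of the 19 WNT ligands, 11 were tested, and 1 rose and 1 fell with the block in each clone, 2 of 11 against 7.03% of all genes in C1 and 4.54% in C2. WNT5A, a ligand that mostly acts without β-catenin, had 31.2 and 33.2 CPM in C1, 29.8 and 27.3 in C2 and 16.4 and 14.7 in WT, and both clones lay above WT. Blocked, WNT5A rose by 1.05 in C1 (SE 0.18, edgeR adjusted p 0.00331) and by 0.88 in C2 (SE 0.18, adjusted p 0.0132), and both calls were lost without C2 replicate 1 or C2 replicate 2. Without the block, edgeR did not call WNT5A (adjusted p 0.201 in C1 and 0.357 in C2). DESeq2 without the block called it (adjusted p 0.00131 in C1 and 0.0216 in C2). WNT8B had 6 and 9 counts in C1, 6 and 8 in C2 and 33 and 27 in WT. Blocked, WNT8B fell by 2.08 in C1 (edgeR adjusted p 0.0225) and by 2.09 in C2 (0.0314), with both clones below WT. DESeq2 with the block did not call WNT8B (adjusted p 0.164 and 0.186), and the edgeR calls in both clones were lost without C2 replicate 1, C2 replicate 2 or WT replicate 1, and that in C1 also without C1 replicate 1. The ligands with the most reads, WNT7B and WNT9A, passed no test between clones and WT.

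Of 16 receptors, 13 were tested and edgeR called 1 against WT, in the mean of the clones, where 9.74% of all genes were called. With the block, 3 of 13 in C1 and 1 of 13 in C2 had an unadjusted p below 0.05, against 21.3% and 19% of all genes. ROR1, a receptor for WNT5A, had 27.2 and 30.4 CPM in C1, 29.3 and 24.1 in C2 and 19.6 and 17.9 in WT, and rose by 0.57 in the mean of the clones with the block (SE 0.16, edgeR adjusted p 0.0438). The co-receptor LRP5, the receptor with the most reads, passed no test between clones and WT. Of the R-spondins and their LGR receptors, 2 of 7 were tested, LGR4 and LGR6, with 0 called by edgeR or DESeq2 and 1 at an unadjusted p below 0.05 in C2 with the block, and LGR5 had at most 10 counts in any library.

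Of 14 WNT antagonists 5 were tested. In the mean of the clones with the block 4 of 5 had a negative log2 difference, where the median over all genes was -0.01. Of the 5, 3 were called in that mean, against 9.74% of all genes. With the block, 5 of 5 in C1 and 3 of 5 in C2 had an unadjusted p below 0.05, against 21.3% and 19% of all genes. DKK2 went the other way, with blocked log2 differences of 1.22 in C1 and 1.3 in C2 (edgeR adjusted p 0.155 and 0.152). KREMEN1 and KREMEN2, which take LRP6 from the surface together with DKK1, fell in C1 with the block by 1.06 (SE 0.26, edgeR adjusted p 0.0291) and by 1.51 (SE 0.39, 0.0338). DESeq2 with the block did not call KREMEN2 in C1 (adjusted p 0.0713) or in the mean (0.0571). With 1 library left out the blocked C1 value ranged over -1.34 to -0.73 for KREMEN1 and -1.95 to -0.96 for KREMEN2, and both calls were lost without C2 replicate 1, C2 replicate 2 or WT replicate 1, and that of KREMEN1 also without C1 replicate 2. KREMEN2 had 35 and 25 counts in C1, 27 and 49 in C2 and 103 and 58 in WT, and all clone libraries were below both WT ones. DKK1, an LRP6 antagonist, fell in the mean of the clones by 0.58 with the block (SE 0.17, edgeR adjusted p 0.0429), and it also fell by 1.37 in replicate 2 against replicate 1. It had 23.7 and 8.55 CPM in C1, 25 and 8.79 in C2 and 32.3 and 14.8 in WT.

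Of 15 genes described as β-catenin targets 10 were tested, and against WT with the block edgeR called 1 higher in each clone and 1 lower in C1. Of all tested genes, 7.03% were called in C1 and 4.54% in C2. At an unadjusted p below 0.05 there were 4 of 10 in C1 and 5 of 10 in C2 with the block. The shares of all genes were 21.3% and 19%. APCDD1, a membrane inhibitor of WNT signalling, had 54 and 138 counts in C1, 38 and 146 in C2 and 17 and 19 in WT. All clone libraries were above both WT libraries, with replicate 2 higher in the clones. Blocked, APCDD1 rose by 2.21 in C1 (SE 0.41, edgeR adjusted p 0.0061) and by 2.12 in C2 (SE 0.41, 0.0108). With 1 library left out the blocked value ranged over 1.44 to 2.88 in C1 and 1.34 to 2.78 in C2, and the call in each clone was lost without C2 replicate 1, C2 replicate 2 or WT replicate 2 (edgeR adjusted p 0.062 to 0.0929 in C1 and 0.106 to 0.544 in C2). SP5, a direct target and transcriptional repressor, had 6 and 5 counts in C1, 10 and 3 in C2 and 29 and 14 in WT, and fell by 2.02 in C1 with the block (SE 0.57, edgeR adjusted p 0.0495). DESeq2 with the block did not call SP5 in C1 (adjusted p 0.33), and the edgeR call there was lost without any 1 library but C1 replicate 2. CCND1, CD44 and MYC did not pass. Their blocked log2 differences were -0.36, 0.21 and 0.46 in C1 and -0.34, 0.48 and -0.13 in C2.

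TLE4, 1 of 4 further TLE genes tested, had 21.5 and 25.3 CPM in C1, 20.5 and 25.3 in C2 and 15.3 and 14.6 in WT. It rose by 0.63 in the mean of the clones with the block (SE 0.17, edgeR adjusted p 0.0337), and TLE3, AES and TLE6 did not pass. Of the 10 genes of these lists called for the mean of the clones with the block, 9 lost the call without C2 replicate 1 and 9 without C2 replicate 2, all but PYGO1 (edgeR adjusted p up to 0.26). Without WT replicate 1, WNT8B, ROR1, KREMEN1, KREMEN2 and SP5 lost it, without WT replicate 2, TLE4, ROR1, DKK1 and APCDD1, without C1 replicate 2, ROR1 and DKK1, and without C1 replicate 1, SP5. None of the 10 changed sign in these fits.

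Between the replicate numbers 15 of the 78 were called, 19.2% against 24.7% of all genes. NOTUM, a secreted enzyme that inactivates WNT ligands, had the largest of these differences and rose in replicate 2 by a log2 difference of 3.45 (SE 0.39, edgeR adjusted p 9.95e-05). NOTUM had 81 counts in replicate 2 and 4 in replicate 1 of C1, 124 and 6 in C2, and 128 and 24 in WT. Also higher in replicate 2 were WNT10A, PORCN, which readies ligands for secretion, LRP6, the scaffold AXIN1, the acetyltransferases CREBBP and EP300, and APCDD1. Lower in replicate 2 were WNT9A, FZD7, DKK1, HDAC1, CCND1, SOX9 and BMP4.

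**Figure D5:**
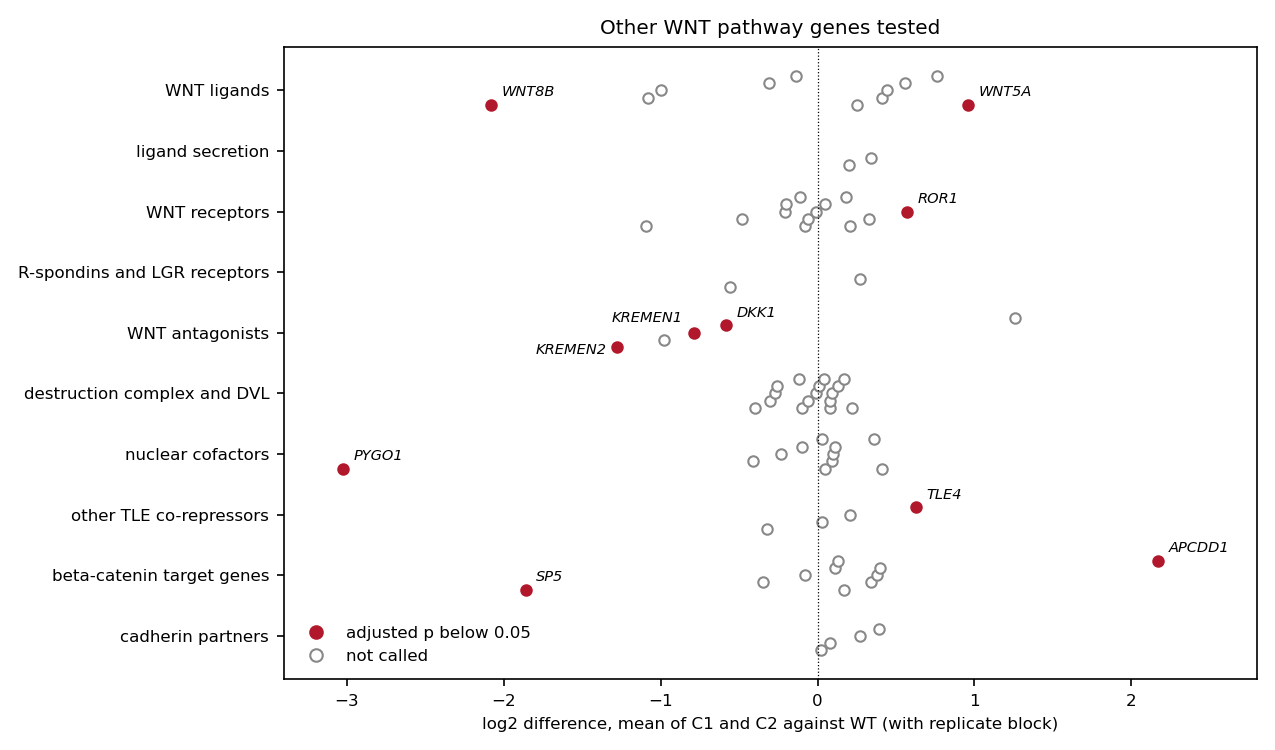
Log2 difference of the 78 other tested WNT pathway genes for the mean of C1 and C2 against WT, from edgeR with the replicate block, by functional list. Filled red points have an adjusted p below 0.05; PYGO1 at -3.02 and APCDD1 at 2.17 lie farthest out, and the 16 destruction complex genes lie between -0.4 and 0.22.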

How the data were processed

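The deposited values are raw gene-level read counts of 6 H358 libraries, 57445 genes by 6 columns, which the authors made with cutadapt 1.6, STAR 2.5.0a and HTSeq 0.5.3 on hg19, per the submitters' processing notes. The strand setting and annotation release are not given in the sources used here. The 5 last entries are not genes, hold 21.3% to 22.4% of the reads listed and were left out. Groups and replicate numbers came from the sample titles.

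R 4.3.3, edgeR 4.0.16 and limma 3.58.1 were used on the counts. filterByExpr kept 17129 genes, TMM scaled the libraries, and a prior count of 2 was used for log2 CPM. One fit over all 6 libraries with a mean per group was tested with edgeR's quasi-likelihood F test (robust) and Benjamini-Hochberg adjustment over all genes, at 0.05, with SEs derived from the F statistic. Exon lengths came from GENCODE 29, on another build, matched by stable ID. Scripts were tested on simulated data. Alternatives were DESeq2 1.42.0, its size factors in edgeR, no count filter, each library left out, and the replicate number as a block.

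Same-numbered libraries deviated together from their group means, with correlations of 0.584 between C1 and WT, 0.634 between C2 and WT and 0.701 between C2 and C1, and on that ground the numbers were treated as pairs. With 2 libraries per group the deviations are mirror images, and the pairing comes from the data alone. Replicates were not copies, with a chi-square per gene of 119 in C1, 105 in C2 and 90.7 in WT. Precision is limited by 2 libraries per group.

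The 10 genes and the other gene lists were chosen with earlier results of these data known. All 10 are named whatever their values. Other WNT genes are named if called in any edgeR fit, otherwise up to 4 per list by mean CPM. MYC was named outside that rule. For AXIN2 and TLE2, the 3 genes with the highest Pearson r of log2 CPM are named, among genes with a mean log2 CPM of at least 1.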

Additional observations from a re-analysis of the deposited data

How the results depend on the processing

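The calls against WT depended on the setting more than the log2 differences did. With the replicate number as a block, edgeR called 1204 genes in C1, 777 in C2 and 1669 for the mean of the clones, against 2, 2 and 34 without it. With no filter on low counts it called 296, 209 and 436 without the block and 2074, 1550 and 2598 with it, and 90 in C2 against C1. DESeq2 called 270, 209 and 393 without the block and 20 in C2 against C1 with it. The cause was not tested. Alternatives to the blocked fit and the blocked leave-one-out fits were chosen after seeing the data. DESeq2 gave no adjusted p for SP5 in the mean with the block, so it has no value there. With DESeq2 size factors in edgeR, 75 of the single-gene results kept direction and side of the threshold without the block, and with it 37 did, while SP5 lost its call in C1 (edgeR adjusted p 0.0501).

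With 1 library left out, edgeR called 0 to 1 genes in C1, 0 in C2, 0 to 3 for the mean, 0 in C2 against C1 and 702 to 4624 between replicate numbers. Blocked, it called 190 to 1582 in C1, 8 to 1734 in C2, 203 to 2233 for the mean and 0 to 345 in C2 against C1. These fits left 2 residual degrees of freedom, or 1 with the block, and the lone library of a group is assumed to vary like the others. Some log2 differences changed sign. AXIN2 ranged over -0.49 to 0.62 in C1, -0.11 to 0.88 in C2 and 0 to 0.55 for the mean, TLE1 over -0.29 to 0.49, -0.26 to 0.13 and -0.18 to 0.24, and DKK1 over -1.45 to 0.13, -1.42 to 0.19 and -0.98 to 0.16. In C2 against C1, TCF7 ranged over -0.94 to 0.84 (blocked, -0.39 to 0.49), TLE2 over -1.39 to 0.64 (blocked, -0.95 to 0.12), AXIN2 over -0.28 to 0.96, TLE1 over -0.58 to 0.21, TCF7L1 over -0.43 to 0.21, RNF43 over -0.12 to 0.25 and CTNNB1 over -0.15 to 0.06. Between replicate numbers TCF7L1 ranged over -0.48 to 0.06 and TCF7L2 over -0.07 to 0.04. TCF7, SP5, WNT8B and LEF1 rest on few counts, which limits what their values can show.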
